A study of Arabidopsis thaliana with 12 samples.

Results

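The serine/arginine-rich (SR) splicing factors described here are 10 genes of Arabidopsis thaliana, chosen by name as members of the SR protein family, of 27655 genes in the table of expression values. They are SR34 (AT1G02840), SR30 (AT1G09140), SR34b (AT4G02430) and SR34a (AT3G49430) of the SR subfamily, RSZ21 (AT1G23860) and RSZ22 (AT4G31580) of the RSZ subfamily, RS40 (AT4G25500) and RS31 (AT3G61860) of the RS subfamily, SC35 (AT5G64200), and SCL33 (AT1G55310) of the SCL subfamily. All 10 passed the filter on low values, so no member is left out. The 4 groups were fve-4 at 27 °C, fve-4 at 21 °C, Col at 27 °C and Col at 21 °C, with 3 libraries each. fve-4 is a mutant of FVE, a protein that works with histone deacetylases, and Col is the Columbia wild type; the labels name no other allele, transgene or line. All seedlings grew at 21 °C under 8 h of light and 16 h of dark for 7 days. At ZT1 (hours after lights-on) seedlings of the 27 °C groups were moved to the warmth, the others stayed at 21 °C, and whole seedlings were harvested at ZT13, after 12 h. The title of the series places the comparison in thermomorphogenesis, the growth response to mild warmth, and asks about FVE together with the histone deacetylase HDA9.

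SR proteins carry RNA recognition motifs and a tail rich in arginine and serine. They bind exons of pre-mRNA and bring the U1 particle to the 5′ splice site and U2AF to the 3′ splice site, and kinases of the SRPK and LAMMER types phosphorylate the tail. In plants many SR genes are themselves alternatively spliced, and temperature and light are known to shift which of their transcripts are made. Values per gene, as used here, do not separate these transcripts.

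The 4 members of the SR subfamily are counterparts of human SRSF1. The first 60 coding bases are printed because SR34 and SR34b are the most alike pair and because the 4 genes, though alike in sequence, had different levels. Capitals mark bases that differ from SR34 at the same position: 7 in SR34b, 19 in SR30 and 26 in SR34a.
SR34 (chr1:626918-626977, plus strand): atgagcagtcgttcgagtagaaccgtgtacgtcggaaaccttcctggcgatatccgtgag
SR34b (chr4:1069186-1069245, plus strand): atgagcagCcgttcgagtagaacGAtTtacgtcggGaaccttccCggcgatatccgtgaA
SR30 (chr1:2945759-2945818, minus strand): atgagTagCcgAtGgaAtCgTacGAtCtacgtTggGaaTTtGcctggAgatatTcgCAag
SR34a (chr3:18332668-18332727, plus strand): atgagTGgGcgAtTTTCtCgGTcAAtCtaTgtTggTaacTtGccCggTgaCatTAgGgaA
Over the aligned coding sequence SR34 and SR34b were 82.6% identical over 867 bases, with a longest identical run of 32 bases. SR30 and SR34 were 69.7% identical, RSZ21 and RSZ22 67.8%, and RS31 and RS40 66.5%. How the authors' counting treated reads that fit both SR34 and SR34b is not given in the sources used here.

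The 250 bases before the annotated start are printed for SR34b and SCL33, the members with the largest changes in warmth in Col. Capitals mark the G-box CACGTG, a motif bound by bHLH and bZIP factors.
SR34b (chr4:1068724-1068973, plus strand): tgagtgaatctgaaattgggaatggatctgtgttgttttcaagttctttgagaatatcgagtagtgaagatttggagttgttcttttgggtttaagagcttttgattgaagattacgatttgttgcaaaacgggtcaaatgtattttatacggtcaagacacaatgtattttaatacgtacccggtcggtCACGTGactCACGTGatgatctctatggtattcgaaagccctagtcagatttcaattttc
SCL33 (chr1:20629448-20629697, plus strand): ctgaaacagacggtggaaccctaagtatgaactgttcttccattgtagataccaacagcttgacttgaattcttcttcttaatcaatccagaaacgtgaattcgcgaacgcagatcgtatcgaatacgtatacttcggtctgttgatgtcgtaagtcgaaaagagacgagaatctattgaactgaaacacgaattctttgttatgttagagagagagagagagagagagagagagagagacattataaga
SR34b held 2 G-boxes, 60 and 51 bases before the start, and RS31 held 1, 190 bases before it. The G-box, which reads the same on both strands, was present in 6.49% of 27443 such windows of the genome. The evening element AAAATATCT (2.36% of windows), the telo-box AAACCCTAA (2.61%) and the heat shock element GAANNTTC (9.55%), searched on both strands, were in 0 of the 10 members' windows. The G-boxes of SR34b do not overlap each other. A match is a description of letters, and no match says only that these letters are not in the window. Sequences are from RefSeq TAIR10.1, while the submitters' processing notes name TAIR10; gene spans of TAIR10.1 turned at least 99.96% of the TPM values above 0 into whole reads in every library (tolerance 0.01).

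The deposited values are TPM, transcripts scaled to 1000000 per library, and the reads recovered from them numbered 11457951 to 14559270 per library, with 231 to 4631 reads per library for each SR gene. FVE, the mutated gene, had 6.64 to 7.0 TPM in fve-4 at 27 °C and 4.89 to 5.48 TPM in fve-4 at 21 °C, against 39.27 to 41.56 TPM in Col at 27 °C and 50.32 to 52.71 TPM in Col at 21 °C. Replicate 1 of fve-4 at 27 °C, replicate 1 of fve-4 at 21 °C and replicate 3 of Col at 27 °C stood apart from their groups, with 3.6 to 5.89 chi-square per degree of freedom against the other replicates, where the remaining pairs of those 3 groups gave 1.96 to 2.35. Leaving these 3 out changed 1 count of calls among the 10 members, the 1 lower in fve-4 at 21 °C, to 0. Of 9 markers of dividing cells, 8 were lower in Col at 27 °C than in Col at 21 °C by limma, against 25.1% of all genes. In fve-4 2 of the 9 were lower at 27 °C, against 14% of all genes. The 9 summed to 233.5 to 242.2 TPM in fve-4 at 27 °C and 226.5 to 276.4 TPM in fve-4 at 21 °C. In Col they summed to 224.3 to 242.4 TPM at 27 °C and 297.5 to 322.5 TPM at 21 °C. The 16 root markers summed to 2459 to 3222 TPM in fve-4 at 27 °C and 2405 to 2569 TPM in fve-4 at 21 °C. In Col they summed to 1941 to 2433 TPM at 27 °C and 2968 to 3122 TPM at 21 °C. Most of each sum was PYK10. Its means were 2370 TPM in fve-4 at 27 °C and 2119 TPM at 21 °C, against 1951 TPM and 2687 TPM in Col. In warmth 1 of the 16 root markers was higher and 1 lower in fve-4 by limma, where 25.2% of all genes were higher and 14% lower. In Col 2 were higher and 6 lower, where 36.7% of all genes were higher and 25.1% lower. At 21 °C 1 of the 16 was higher in fve-4 than in Col by limma and 1, PYK10, was lower. Of all genes, 15.3% were higher and 8.49% lower. The median difference of the 16 was 0.15 on the log2(TPM + 1) scale. The 10 green tissue markers summed to 39920 to 40650 TPM in fve-4 at 27 °C and 46810 to 47670 TPM in fve-4 at 21 °C. In Col they summed to 40400 to 45040 TPM at 27 °C and 47960 to 50390 TPM at 21 °C. RBCS1A was the largest part, with means of 19630 TPM in fve-4 at 27 °C and 25730 TPM at 21 °C, against 20590 TPM and 26810 TPM in Col. In warmth 2 of the 10 were higher and 3 lower in fve-4 by limma, where 25.2% of all genes were higher and 14% lower. In Col 3 were higher and 3 lower, where 36.7% of all genes were higher and 25.1% lower. The 6 seed markers reached 79.46 TPM in 1 library of fve-4 at 27 °C. No listed marker was at 0 in every library. The part of these shifts in the SR values was not tested, and in whole seedlings fewer cells of a type and less RNA per cell cannot be told apart.

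For 6 of the SR genes the rise in warmth was smaller in fve-4 than in Col by a test of the difference. In fve-4, 8 of the 10 were higher at 27 °C and 1 was lower, with a median change of 0.22 on the log2(TPM + 1) scale, the scale of every fold change below. With median-ratio rescaling or quantile normalization of the libraries, 4 of the 10 were higher in fve-4. Of all 19863 genes tested, 3709 were higher there with the first and 3716 with the second. As deposited, 39.2% of all genes were called in that comparison (25.2% higher and 14% lower), with a median of 0.07. In Col, 8 of the 10 were higher and 1 was lower, with a median change of 0.83. Of all genes, 61.9% were called in Col (36.7% higher and 25.1% lower), with a median of 0.08. The call was a limma p, adjusted by Benjamini-Hochberg over all genes tested, below 0.05. The libraries of the groups did not overlap for 9 of the 10 members in fve-4, where 50.2% of all genes did not, and for 9 of the 10 in Col, where 66.5% did not. The summed level of the 10 genes was 689.1 ± 21.7 TPM in fve-4 at 27 °C and 550.6 ± 3.38 TPM in fve-4 at 21 °C, against 808.0 ± 28.0 TPM in Col at 27 °C and 483.4 ± 18.2 TPM in Col at 21 °C (SD, n = 3 each).

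**Figure D1:**
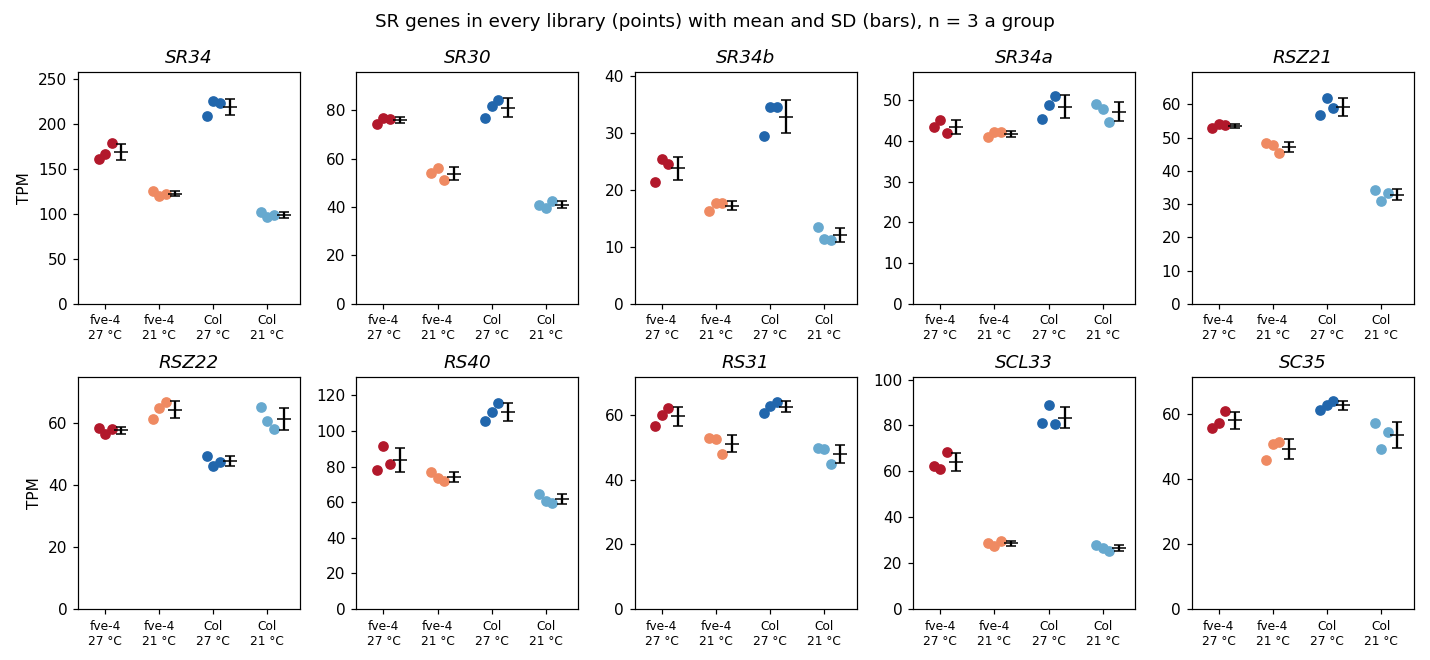
Level of each of the 10 SR genes in TPM in every library (points) with the group mean and SD (bars), n = 3 libraries a group, each panel with its own linear axis that starts at 0. SCL33 had 61.1 to 68.5 TPM in fve-4 at 27 °C and 27.7 to 29.7 TPM in fve-4 at 21 °C, against 80.4 to 88.7 TPM in Col at 27 °C and 25.2 to 27.8 TPM in Col at 21 °C.

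SR34, which promotes use of splice sites as SRSF1 does in humans, was the highest of the 10 genes in all 4 groups. It had 161, 167 and 179 TPM in fve-4 at 27 °C, against 126, 120.4 and 122 TPM in fve-4 at 21 °C. It had 209, 225 and 223 TPM in Col at 27 °C, against 102, 96.4 and 98.5 TPM in Col at 21 °C. The warm libraries were above the cool ones in each genotype with no overlap. The change was 0.46 ± 0.05 in fve-4 (SE, limma adjusted p = 7.09e-06) and 1.14 ± 0.05 in Col (adjusted p = 5.52e-10). The response of fve-4 minus that of Col was -0.68 ± 0.07 (adjusted p = 1.78e-05). SR34 made up 24.54% of the summed SR level in fve-4 at 27 °C and 22.3% of it in fve-4 at 21 °C, against 27.13% in Col at 27 °C and 20.48% in Col at 21 °C.

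SR30 is the other close counterpart of SRSF1. It had 74.4, 76.8 and 76.5 TPM in fve-4 at 27 °C, against 54.0, 56.3 and 51.0 TPM in fve-4 at 21 °C. It had 77.0, 81.9 and 84.5 TPM in Col at 27 °C, against 40.9, 39.7 and 42.5 TPM in Col at 21 °C. Warm and cool libraries did not overlap in either genotype. SR30 rose by 0.49 ± 0.05 in fve-4 (adjusted p = 8.61e-06) and by 0.97 ± 0.05 in Col (adjusted p = 3.96e-09). The responses differed by -0.48 ± 0.07 (adjusted p = 0.000369).

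SR34b, a factor known for cadmium tolerance through splicing of the iron transporter IRT1, was the lowest of the 10. It had 21.4, 25.4 and 24.4 TPM in fve-4 at 27 °C, against 16.3, 17.7 and 17.7 TPM in fve-4 at 21 °C. It had 29.5, 34.5 and 34.5 TPM in Col at 27 °C, against 13.4, 11.4 and 11.2 TPM in Col at 21 °C. All warm libraries lay above the cool ones of their genotype. SR34b rose by 0.44 ± 0.09 in fve-4 (adjusted p = 0.00188) and by 1.38 ± 0.09 in Col (adjusted p = 2.27e-08), 1.36-fold and 2.6-fold on TPM + 1. The difference of -0.94 ± 0.13 (adjusted p = 0.000156) was the largest of the 10.

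SR34a is the remaining gene of the subfamily. It ranged between 41.9 and 45.3 TPM in fve-4 at 27 °C and between 40.9 and 42.2 TPM in fve-4 at 21 °C. In Col it ranged between 45.4 and 51.1 TPM at 27 °C and between 44.7 and 49.1 TPM at 21 °C. The warm and cool ranges overlapped in both genotypes. With median-ratio rescaling both changes of SR34a were below 0 (-0.02 in fve-4 and -0.06 in Col), as with quantile normalization (-0.02 in fve-4 and -0.1 in Col). As deposited, the changes of 0.06 ± 0.06 in fve-4 (adjusted p = 0.461) and 0.04 ± 0.06 in Col (adjusted p = 0.613) did not pass, and neither did the difference of 0.02 ± 0.08 (adjusted p = 0.863).

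RSZ21 and RSZ22 carry a zinc knuckle beside the RNA recognition motif, as SRSF7 does in humans, and went in opposite directions. RSZ21 had 52.8, 54.0 and 53.8 TPM in fve-4 at 27 °C, against 48.3, 47.7 and 45.5 TPM in fve-4 at 21 °C. It had 56.6, 61.9 and 59.0 TPM in Col at 27 °C, against 34.2, 31.0 and 33.2 TPM in Col at 21 °C. The libraries did not overlap in either genotype, and the gap was wider in Col. RSZ21 rose by 0.18 ± 0.05 in fve-4 (adjusted p = 0.0163) and by 0.83 ± 0.05 in Col (adjusted p = 1.69e-08), a difference of -0.65 ± 0.08 (adjusted p = 4.7e-05). The fve-4 call was lost without replicate 3 of fve-4 at 21 °C (adjusted p = 0.0631) or replicate 2 of fve-4 at 27 °C (0.0501). It was also lost with median-ratio rescaling (0.149) and quantile normalization (0.125), with a range of 0.0138 to 0.149 over 25 alternatives.

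RSZ22, which is known to bind U1-70K, fell in warmth. It ranged between 56.5 and 58.6 TPM in fve-4 at 27 °C and between 61.6 and 66.8 TPM in fve-4 at 21 °C. In Col it ranged between 46.4 and 49.5 TPM at 27 °C and between 58.3 and 65.4 TPM at 21 °C. Warm libraries were below cool ones without overlap in both genotypes. The change was -0.15 ± 0.05 in fve-4 (adjusted p = 0.0359) and -0.36 ± 0.05 in Col (adjusted p = 5.94e-05). The difference of 0.2 ± 0.08 did not pass (adjusted p = 0.0587); it passed without replicate 3 of Col at 21 °C (0.0405) or replicate 3 of fve-4 at 21 °C (0.0486), with a range of 0.0297 to 0.229. The fve-4 call was lost when replicate 2 (0.0879) or 3 (0.121) of fve-4 at 21 °C or replicate 1 (0.0532), 2 (0.11) or 3 (0.0695) of fve-4 at 27 °C was left out, over a range of 0.00334 to 0.121.

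RS40 and RS31 belong to a plant-specific subfamily with a pair of RNA recognition motifs, and RS40 is also known for a role in microRNA processing. RS40 had 78.4, 91.3 and 81.7 TPM in fve-4 at 27 °C, against 77.3, 73.5 and 72.1 TPM in fve-4 at 21 °C. It had 106, 111 and 116 TPM in Col at 27 °C, against 64.8, 60.4 and 59.8 TPM in Col at 21 °C. The fve-4 groups came within about 1 TPM of each other, and the Col groups were far apart. RS40 rose by 0.17 ± 0.06 in fve-4 (adjusted p = 0.0404) and by 0.83 ± 0.06 in Col (adjusted p = 5.42e-08), a difference of -0.66 ± 0.09 (adjusted p = 9.98e-05). The fve-4 call was lost in 13 of 25 alternatives, over a range of 0.0108 to 0.276; the single libraries that ended it were replicate 2 of Col at 21 °C (0.0505), replicates 2 (0.0977) and 3 (0.118) of fve-4 at 21 °C, replicate 2 of Col at 27 °C (0.0521) and replicates 2 (0.187) and 3 (0.0605) of fve-4 at 27 °C.

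RS31, whose splicing is known to respond to light, ranged between 56.5 and 62.1 TPM in fve-4 at 27 °C and between 48.0 and 52.8 TPM in fve-4 at 21 °C. In Col it ranged between 60.7 and 64.0 TPM at 27 °C and between 44.7 and 49.7 TPM at 21 °C. Both genotypes showed separate warm and cool libraries. The rise was 0.22 ± 0.06 in fve-4 (adjusted p = 0.0101) and 0.38 ± 0.06 in Col (adjusted p = 7.96e-05). The difference of -0.16 ± 0.08 did not pass (adjusted p = 0.163). With the libraries rescaled by the median ratio the fve-4 call was lost (adjusted p = 0.0784), as with quantile normalization (0.0556), in a range of 0.0076 to 0.0784 over alternatives.

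SC35, the counterpart of human SRSF2, and SCL33, a plant-specific relative with a charged extension at its start, differed in size of response. SC35 ranged between 55.9 and 61.1 TPM in fve-4 at 27 °C and between 45.8 and 51.6 TPM in fve-4 at 21 °C. In Col it ranged between 61.4 and 64.0 TPM at 27 °C and between 49.3 and 57.2 TPM at 21 °C. Neither pair of groups overlapped. SC35 rose by 0.23 ± 0.06 in fve-4 (adjusted p = 0.0107) and by 0.22 ± 0.06 in Col (adjusted p = 0.00774), and the responses differed by 0.01 ± 0.09 (adjusted p = 0.953). The SC35 calls depend on scaling: with the median ratio the adjusted p was 0.0734 in fve-4 and 0.118 in Col, and with quantile normalization it was 0.0632 in fve-4 and 0.216 in Col, the range over alternatives being 0.00699 to 0.0734 in fve-4 and 0.00459 to 0.216 in Col. Without replicate 3 of fve-4 at 27 °C the fve-4 value was 0.0516.

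SCL33, which is known to bind U1-70K and to act on the splicing of its own transcript, had the widest span of group means of the 10 on the log2 scale, at 1.62. It had 62.3, 61.1 and 68.5 TPM in fve-4 at 27 °C, against 28.7, 27.7 and 29.7 TPM in fve-4 at 21 °C. It had 81.2, 88.7 and 80.4 TPM in Col at 27 °C, against 27.8, 26.7 and 25.2 TPM in Col at 21 °C. The warm and cool libraries did not overlap in either genotype, and Col showed the wider gap. SCL33 rose by 1.13 ± 0.06 in fve-4 (adjusted p = 3.63e-08) and by 1.62 ± 0.06 in Col (adjusted p = 3.01e-10), 2.19-fold and 3.06-fold on TPM + 1. The difference was -0.49 ± 0.09 (adjusted p = 0.00103).

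Responses in fve-4 were smaller than in Col for 8 of the 10 members, the exceptions being SR34a and SC35. The share of all genes with a smaller response in fve-4 is not given here. In warmth 39.2% of all genes were called in fve-4 and 61.9% in Col. The difference of the responses was called lower for 6 of the 10 (SR34b, SR34, RS40, RSZ21, SCL33 and SR30), with a median of -0.48; none was called higher by limma, while 1, RSZ22, was higher at an unadjusted p under 0.05 and 1 in limma-voom. Of all genes, 32.4% were called (14.4% higher and 18% lower), with a median of -0.02. The 6 calls held in each of the 24 alternatives that apply to this comparison. Of 9 markers of dividing cells, 4 had a higher difference of responses by limma, 5 at unadjusted p under 0.05 and 3 by limma-voom. By each of these, 0 had a lower one. The part of these markers in the SR differences was not tested.

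**Figure D2:**
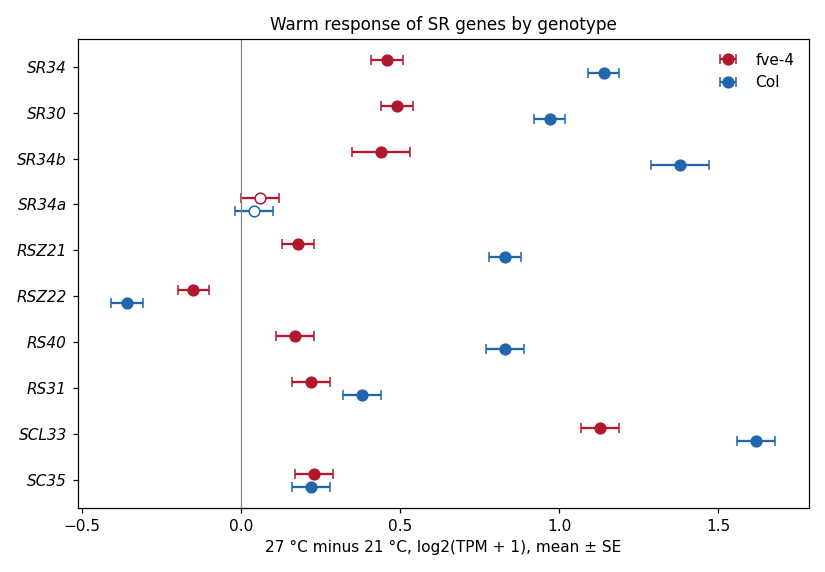
Change of each SR gene at 27 °C relative to 21 °C in fve-4 and in Col, as the difference of mean log2(TPM + 1) with SE bars, n = 3 libraries a group. SR34b changed by 0.44 in fve-4 and 1.38 in Col, and SC35 by 0.23 and 0.22.

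At 27 °C, fve-4 had lower levels of 4 SR genes than Col and a higher level of 1, with a median difference of -0.15. Of all genes, 38.5% were called (20.9% higher and 17.6% lower), with a median of 0.02. The differences were -0.45 ± 0.09 for SR34b (adjusted p = 0.00189), -0.4 ± 0.06 for RS40 (0.000246), -0.38 ± 0.06 for SCL33 (0.000443) and -0.37 ± 0.05 for SR34 (7.54e-05). RSZ22 was higher by 0.27 ± 0.05 (adjusted p = 0.00173), at 57.79 ± 1.16 TPM in fve-4 and 47.79 ± 1.55 TPM in Col (SD, n = 3 each). The other members did not pass: SR30 -0.09 ± 0.05, SR34a -0.15 ± 0.06, RSZ21 -0.14 ± 0.05, RS31 -0.07 ± 0.06 and SC35 -0.11 ± 0.06. RSZ21 (adjusted p = 0.0528) and SR34a (0.055) were near the threshold. Leaving out replicate 1 of Col at 27 °C brought RSZ21 to 0.0411 and SR34a to 0.0257, and RSZ21 also passed without replicate 2 of Col at 21 °C (0.0469). With all libraries kept, both passed with median-ratio rescaling (0.0277 and 0.0263) and with exon lengths (0.0465 and 0.045). RSZ21 passed as well with a pseudocount of 5 (0.0498) and with no filter on low values (0.0452). Over alternatives the adjusted p was 0.0277 to 0.183 for RSZ21 and 0.0257 to 0.27 for SR34a. For 9 of 10 members fve-4 and Col libraries did not overlap at 27 °C, where 50.1% of all genes did not; RS31 overlapped. In the same comparison 8 of 16 root markers were higher in fve-4 and 1 was lower, and 3 of 9 markers of dividing cells were higher and 1 was lower; their part in the SR differences was not tested.

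At 21 °C, fve-4 had higher levels of 5 SR genes than Col and a lower level of 1, with a median of 0.18. Of all genes, 23.8% were called (15.3% higher and 8.49% lower), with a median of 0.05. RSZ21 was higher by 0.51 ± 0.05 (adjusted p = 3.76e-05), SR34b by 0.49 ± 0.09 (0.00203), SR30 by 0.38 ± 0.05 (0.000265), SR34 by 0.31 ± 0.05 (0.000604) and RS40 by 0.26 ± 0.06 (0.00716). SCL33, at 28.71 ± 1.02 TPM in fve-4 and 26.55 ± 1.32 TPM in Col, differed by 0.11 ± 0.06 (adjusted p = 0.229). RSZ22 (0.07 ± 0.05), RS31 (0.09 ± 0.06) and SC35 (-0.12 ± 0.06) did not pass either. SR34a was lower, with a difference of -0.17 ± 0.06 (adjusted p = 0.0456), a call that 14 of 25 alternatives ended, over 0.0128 to 0.142. Among single libraries, those that ended it were replicates 1 (0.142) and 2 (0.121) of Col at 21 °C, all replicates of fve-4 at 21 °C (0.12, 0.0868 and 0.0759), replicate 2 of Col at 27 °C (0.0585) and all replicates of fve-4 at 27 °C (0.0522, 0.0503 and 0.0526). In the same comparison 3 of 9 markers of dividing cells were lower in fve-4 by limma, 4 at unadjusted p under 0.05 and 4 by limma-voom. By each of these, 0 were higher. The part of these markers in the SR differences was not tested. SR34, SR34b and RS40 were thus lower in fve-4 at 27 °C and higher in fve-4 at 21 °C. For 6 of 10 members the libraries did not overlap at 21 °C, where 40.6% of all genes did not.

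**Figure D3:**
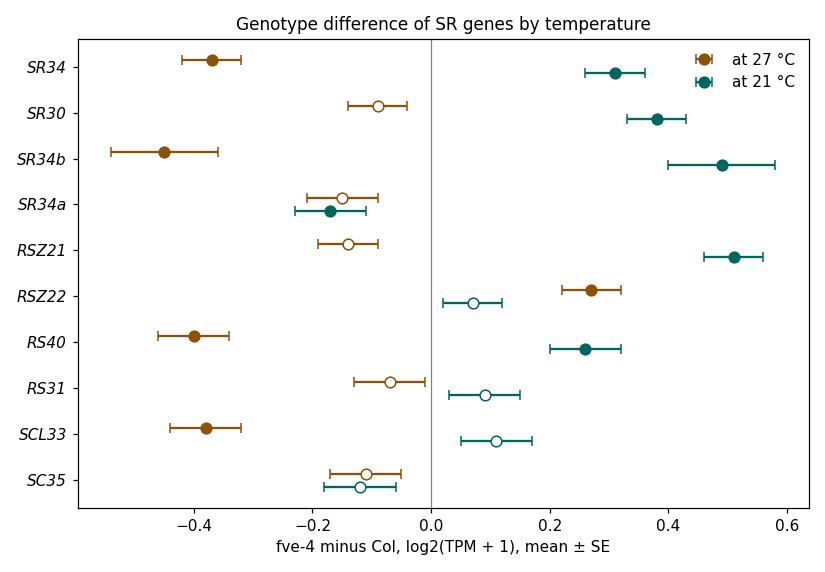
Difference between fve-4 and Col for each SR gene at 27 °C and at 21 °C, as the difference of mean log2(TPM + 1) with SE bars, n = 3 libraries a group. SR34b was at -0.45 at 27 °C and 0.49 at 21 °C, and RSZ21 at -0.14 and 0.51.

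The comparisons share libraries: both genotype comparisons and both temperature comparisons use the same 4 groups, so these values are not independent of each other. The scaling changes how calls split over all genes: 64.2% of those called in fve-4 in warmth were higher as deposited, 49.8% with the median ratio and 48.7% with quantile normalization, and for fve-4 against Col at 21 °C the shares were 64.3%, 47.9% and 50.2%.

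Ratios between members, of the same subfamily except for SCL33 over SC35, show how the make-up shifted within each library and carry no test. RSZ21 over RSZ22 was 0.902 to 0.957 in fve-4 at 27 °C and 0.68 to 0.785 in fve-4 at 21 °C, against 1.145 to 1.333 in Col at 27 °C and 0.511 to 0.569 in Col at 21 °C. SCL33 over SC35 was 1.063 to 1.123 in fve-4 at 27 °C and 0.545 to 0.627 in fve-4 at 21 °C, against 1.258 to 1.409 in Col at 27 °C and 0.461 to 0.542 in Col at 21 °C. In both ratios the 4 groups did not overlap, and fve-4 lay inside the Col range. SR34a over SR34 was 0.235 to 0.271 in fve-4 at 27 °C and 0.326 to 0.351 in fve-4 at 21 °C, against 0.217 to 0.229 in Col at 27 °C and 0.453 to 0.498 in Col at 21 °C. RS31 over RS40 was 0.656 to 0.76 in fve-4 at 27 °C and 0.665 to 0.713 in fve-4 at 21 °C, overlapping, against 0.554 to 0.574 in Col at 27 °C and 0.748 to 0.817 in Col at 21 °C. SR30 over SR34 was 0.428 to 0.461 in fve-4 at 27 °C and 0.417 to 0.467 in fve-4 at 21 °C. In Col it was 0.363 to 0.378 at 27 °C, below all libraries of the other groups, and 0.401 to 0.431 at 21 °C. SR34b over SR34 was 0.132 to 0.152 in fve-4 at 27 °C and 0.13 to 0.147 in fve-4 at 21 °C, overlapping. In Col it was 0.141 to 0.154 at 27 °C and 0.113 to 0.132 at 21 °C, without overlap.

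**Figure D4:**
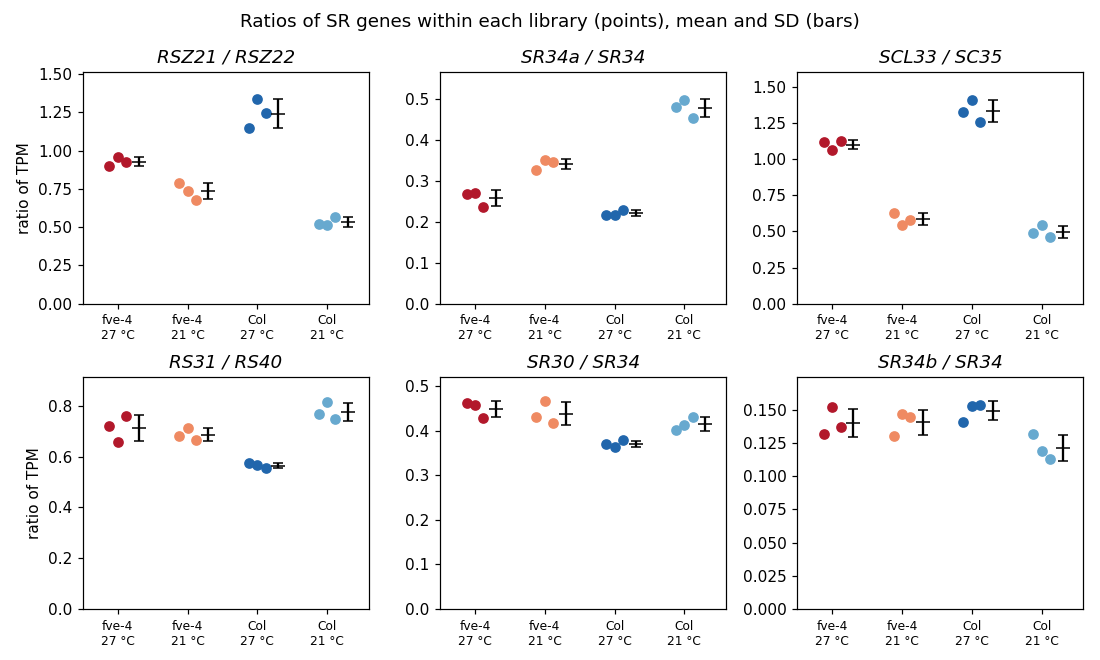
Ratios of SR genes within each library (points) with group mean and SD (bars), n = 3 libraries a group, on linear axes starting at 0, for the pairs named in the panel titles. RSZ21 over RSZ22 was 0.927 in fve-4 at 27 °C and 0.733 in fve-4 at 21 °C, against 1.24 in Col at 27 °C and 0.534 in Col at 21 °C.

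Levels are compared between genes per gene length; the deposited TPM divide by the gene span, so introns count, and the span was 1.18 (RS40) to 1.95 (RS31) times the exons. SR34 had rank 1 and SR34b rank 10 in all groups on both length scales. RS40 had rank 2 in every group on the deposited scale; with exon lengths RS31 held rank 2 in 3 groups. SCL33 had rank 9 at 21 °C in both genotypes and, at 27 °C, rank 4 in fve-4 and rank 3 in Col, where it overlapped SR30. With exon lengths SCL33 had rank 6 in fve-4 and 5 in Col at 27 °C. Among the middle ranks neighbours overlapped: in fve-4 at 27 °C SCL33, RS31, SC35 and RSZ22 followed each other with overlapping libraries. In Col at 21 °C RS40 and RSZ22 overlapped, as did SC35, RS31 and SR34a.

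For members whose 4 group means spanned at least 1 on the log2 scale, the 3 tested genes with the most similar profile were found by root mean square difference over the 4 group means, a description over 4 groups. SR34 (span 1.14) was closest to AT1G79910 (0.011), VLN3 (0.014) and AT2G44410 (0.018). VLN3 had 58.6 TPM in fve-4 at 27 °C and 42.9 TPM in fve-4 at 21 °C, against 76.1 TPM in Col at 27 °C and 34.9 TPM in Col at 21 °C. SR34b (span 1.38) was closest to AT3G04160 (0.025), AT3G01310 (0.027) and LBD41 (0.029). SCL33 (span 1.62) was closest to HB33 (0.019), PAR2 (0.037) and AT2G44500 (0.058).

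The family holds 8 other SR proteins, listed from general knowledge. In fve-4, 4 of 8 were higher at 27 °C and 0 lower by limma (1 lower at unadjusted p under 0.05 and 1 lower by limma-voom); in Col, 5 were higher and 1 lower. Of all genes, 25.2% were higher and 14% lower in fve-4, and 36.7% higher and 25.1% lower in Col. RS2Z33, with a pair of zinc knuckles, rose by 1.26 ± 0.05 in fve-4 (adjusted p = 1.38e-09) and 1.53 ± 0.05 in Col (6.2e-11), with a difference of -0.27 ± 0.07 (0.00683). It had 169.2 TPM in fve-4 at 27 °C and 70.28 TPM in fve-4 at 21 °C, against 192.3 TPM in Col at 27 °C and 66.06 TPM in Col at 21 °C. RS2Z32 rose by 0.28 ± 0.04 in fve-4 and 0.7 ± 0.04 in Col, with a difference of -0.43 ± 0.06 (adjusted p = 0.000214), and was lower in fve-4 at 27 °C (-0.32 ± 0.04, adjusted p = 0.000112). RS31a rose by 0.83 ± 0.12 in fve-4 and 1.29 ± 0.12 in Col and was higher in fve-4 at 21 °C (0.52 ± 0.12, adjusted p = 0.00818), while its difference of -0.46 ± 0.17 did not pass (0.0542). SCL30 rose by 0.38 ± 0.06 in fve-4 and 0.65 ± 0.06 in Col. Over all 18 SR proteins, 12 were higher and 1 lower in fve-4 at 27 °C, 13 higher and 2 lower in Col, and for 10 the difference of responses was called lower, with 7 lower and 1 higher in fve-4 than Col at 27 °C and 6 higher and 1 lower at 21 °C. The difference was lower for 18% of all genes. At 27 °C 17.6% of all genes were lower and 20.9% higher in fve-4 than in Col. At 21 °C 15.3% were higher and 8.49% lower. Without the 3 libraries that stood apart these counts over all 18 SR proteins were 13 higher and 2 lower in fve-4 in warmth, 8 with a lower difference, and 0 lower in fve-4 at 21 °C. With median-ratio rescaling or quantile normalization 8 of all 18 SR proteins were higher in fve-4 in warmth. Of all 19863 genes tested, 3709 were higher there with the first and 3716 with the second. The sum of the 18 SR proteins was 1206 ± 35.3 TPM in fve-4 at 27 °C and 928.9 ± 3.85 TPM in fve-4 at 21 °C. In Col it was 1395 ± 39.9 TPM at 27 °C and 855.7 ± 28.4 TPM at 21 °C (SD, n = 3 each).

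SR45a, an SR-like protein known as a heat and high-light gene, rose in both genotypes. Its change was 1.44 ± 0.07 in fve-4 (adjusted p = 8.93e-09) and 1.36 ± 0.07 in Col (1.54e-09), at 53.88 TPM in fve-4 at 27 °C and 19.25 TPM in fve-4 at 21 °C, against 52.72 TPM in Col at 27 °C and 19.99 TPM in Col at 21 °C. The difference was 0.08 ± 0.09 (adjusted p = 0.549). SR45, the other SR-like protein, named after its values were seen, was lower in fve-4 at 21 °C (-0.2 ± 0.06, adjusted p = 0.031).

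Of 10 kinases and import factors that act on SR proteins, 2 were higher and 1 lower in fve-4 in warmth and 8 were higher in Col, where 0 were lower by limma, at unadjusted p under 0.05 and by limma-voom; the medians were 0.15 in fve-4 and 0.52 in Col. Of all genes, 25.2% were higher and 14% lower in fve-4, so the fve-4 counts were near those of all genes. In Col 36.7% of all genes were higher and 25.1% lower. The difference of responses was called lower for 6, against 18% of all genes, with a median of -0.33. SRPK4, an SR protein kinase, changed by 0.32 ± 0.07 in fve-4 (adjusted p = 0.00224) and 0.91 ± 0.07 in Col (8.28e-08), a difference of -0.59 ± 0.1 (0.000602). PRP4KA, a spliceosome-bound kinase, changed by 0.25 ± 0.07 in fve-4 and 0.73 ± 0.07 in Col, a difference of -0.48 ± 0.1 (adjusted p = 0.00274). Of 9 U1 and U2AF partners, 4 were higher in fve-4, with 0 lower by limma, at unadjusted p under 0.05 and by limma-voom. In Col 7 were higher and 2 lower, against 36.7% higher and 25.1% lower of all genes. Of the 9, 6 had a lower and 1 a higher difference of responses, against 18% lower and 14.4% higher of all genes. U2AF65a, which binds the polypyrimidine tract, changed by 0.23 ± 0.06 in fve-4 and 1.06 ± 0.06 in Col, a difference of -0.83 ± 0.09 (adjusted p = 2.17e-05). U2AF35a, which reads the 3′ splice site, changed by 0.56 ± 0.05 in fve-4 and 0.91 ± 0.05 in Col, a difference of -0.35 ± 0.07 (adjusted p = 0.00274), and U2AF35b had a difference of -0.53 ± 0.07 (0.000163).

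Among 12 other splicing regulators, 4 were higher in fve-4 in warmth (with 0 lower by limma, 1 at unadjusted p under 0.05 and 0 by limma-voom) and 8 were higher and 2 lower in Col; 3 had a lower and 2 a higher difference of responses. Of all genes, 25.2% were higher in fve-4, and 36.7% were higher and 25.1% lower in Col. A lower difference was called for 18% and a higher one for 14.4%. The fve-4 count and those of the difference were thus near the shares of all genes. SKIP, a spliceosome factor tied to the clock, changed by 0.07 ± 0.05 in fve-4 (adjusted p = 0.312) and 0.77 ± 0.05 in Col (1.68e-08), a difference of -0.7 ± 0.07 (1.74e-05). GRP7, a clock-regulated RNA-binding protein, rose by 1.13 ± 0.06 in fve-4 and 1.35 ± 0.06 in Col, with no call for the difference (-0.22 ± 0.08, adjusted p = 0.052). GRP8, its close relative, rose by 0.7 ± 0.07 in fve-4 and 1.06 ± 0.07 in Col, a difference of -0.36 ± 0.09 (adjusted p = 0.0089). SME1, a core protein of the spliceosomal particles, changed by -0.13 ± 0.06 in fve-4 (adjusted p = 0.104) and -0.45 ± 0.06 in Col (2.01e-05), a difference of 0.32 ± 0.09 (0.0121). Of 7 exon junction and nonsense-mediated decay genes, 0 were higher by limma in fve-4 in warmth (1 at unadjusted p under 0.05, 0 by limma-voom) and 1 was lower, while 2 were higher and 3 lower in Col; of all genes 14% were lower in fve-4, and 36.7% were higher and 25.1% lower in Col. Y14, of the exon junction complex, had a difference of 0.38 ± 0.07 (adjusted p = 0.00173), and UPF3, a decay factor, one of -0.39 ± 0.1 (0.0102). EIF4A3, a core helicase of the junction complex, changed by -0.05 ± 0.05 in fve-4 (adjusted p = 0.465) and -0.21 ± 0.05 in Col (0.00294). Its difference of 0.16 ± 0.07 did not pass (adjusted p = 0.114).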

How the data were processed

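Messenger RNA of whole seedlings was sequenced in 12 libraries, 3 for each of 4 groups, as the labels name them. The labels do not say whether replicates came from separate cultures, so p-values measure the spread between libraries, which may be technical. The expression values are TPM, which the authors deposited as 1 table of 27655 genes; each column sums to 1000000, although the column names speak of gene counts. The submitters' processing notes list HISAT2 2.1.10, fastp 0.20.1, the build TAIR10 and DESeq2 1.26.0 without saying what each was for; the read counter and its strand setting are not given in the sources used here. Per the labels' protocols, the library kit was NEBNext Ultra RNA.

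Reads behind the TPM were recovered from TPM and gene span and gave the depth. The test was limma (version 3.58.1, R version 4.3.3), run on log2(TPM + 1) values and using a variance trend, in 1 model of the 4 group means over 12 libraries (8 residual degrees of freedom), on the 19863 genes with at least 1 TPM in at least 3 libraries. The 5 contrasts were the warm response in fve-4 and in Col, their difference, and the genotype difference (fve-4 minus Col) at 27 °C and at 21 °C. A Benjamini-Hochberg adjusted p under 0.05 over all genes tested was the call, two-sided, and every adjusted p comes from limma or, where named, limma-voom. The test was also run on simulated data in which few genes changed, in 1 group, and libraries were independent. That simulation does not cover the wide changes, the effect of scaling or the libraries that stood apart here. The members, the 11 gene lists and the rule for named genes (all 10 members, SR relatives called with a change of at least 0.5, and per other list the 2 genes with the smallest adjusted p in each direction over the 5 contrasts, so that a gene may enter by its difference of responses) were chosen with earlier results of these data known. Values in every library are given for members called with a change of at least 0.5. Alternatives changed the pseudocount, filter, scaling, variance trend, threshold, replicate block and libraries; limma-voom on the recovered reads and TPM with exon lengths were added after seeing the data. Symbols and sequences are from RefSeq TAIR10.1, which held 99.24% of the identifiers. The labels do not say whether equal replicate numbers pair libraries, and the main model holds no replicate block. Tables and figures used Python 3.11.15 with numpy 2.4.6, pandas 2.3.3, matplotlib 3.10.9 and biopython 1.88.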

Additional observations from a re-analysis of the deposited data

Results flagged for a closer look

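For 6 SR genes the change in warmth differed between the genotypes by a test of the difference itself in limma (fve-4 minus Col, log2 scale): SR34b by -0.94, SR34 by -0.68, RS40 by -0.66, RSZ21 by -0.65, SCL33 by -0.49 and SR30 by -0.48. In each the rise was smaller in fve-4. Groups of 3 libraries are too small for a test of single outlying libraries.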

How the results depend on the processing

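Over 25 alternatives (24 for the difference of responses), 1160 of 1240 values of the 10 members kept their direction and side of the threshold, 49 lost the call, 14 gained one and 17 changed sign, all for SR34a or SC35 and uncalled on both sides. SR34a in warmth was at -0.02 in fve-4 with median-ratio rescaling and with quantile normalization, and in Col at -0.06 with the first, -0.1 with the second, -0.02 with limma-voom, 0 without the 3 libraries that stood apart and 0 to 0.08 without single libraries. The difference of responses of SR34a was -0.02 to 0.06 and that of SC35 -0.04 to 0.07 without single libraries, and SC35 was at 0 without the 3 libraries. The number higher in fve-4 in warmth fell to 4 with median-ratio rescaling, quantile normalization and an adjusted p under 0.01, against 8; without single libraries it was 6 to 8. The 1 lower there (RSZ22) became 0 with no variance trend, with only the groups of the contrast and at the stricter threshold, and was 0 to 1 without single libraries. The 1 lower in fve-4 at 21 °C (SR34a) became 0 with no variance trend, with only the groups of the contrast, without the 3 libraries that stood apart and at the stricter threshold, and was 0 to 1 without single libraries. For the difference of responses the 0 called higher by limma (1 at unadjusted p under 0.05) became 1, RSZ22, with median-ratio rescaling, quantile normalization and limma-voom, and was 0 to 1 without single libraries. For fve-4 against Col at 27 °C, 4 to 6 were lower without single libraries. With all libraries kept, RSZ21 and SR34a were also called lower there with median-ratio rescaling and with exon lengths. RSZ21 was called lower as well with a pseudocount of 5 and with no filter on low values.

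Same-numbered libraries correlated at -0.14 to 0.19 in 18 pairs, with 1 above 0.1, and a library correlated best with its own number in 13 of 36 checks. With the replicate block, the 1 lower in fve-4 at 21 °C became 0 (SR34a, adjusted p = 0.0579) and RS40 in fve-4 in warmth was at 0.0563; over all genes the block's counts of calls were 0.98 to 1 times those without it. The cause of these changes was not tested. With 231 to 695 reads per library, SR34b had the largest counting error of the 10.

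Among the other genes named, these uncalled values changed sign. In fve-4 in warmth, SR45 was at -0.05 with median-ratio rescaling and with quantile normalization, SKIP at -0.01 with the first, and Y14 at -0.06 with both, -0.01 with limma-voom and -0.02 to 0.04 without single libraries. For fve-4 against Col at 27 °C, without the 3 libraries, SR45a was at -0.02, GRP7 at 0.01 and EIF4A3 at -0.02; GRP7 was at 0.05 with quantile normalization; without single libraries RS31a was at -0.06 to 0.15, SR45a at -0.01 to 0.07 and EIF4A3 at -0.01 to 0.05. At 21 °C PRP4KA was at 0.06 without the 3 libraries, 0 with limma-voom and -0.06 to 0.06 without single libraries, where SR45a was at -0.1 to 0 and SME1 at -0.07 to 0.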
